A study of Mus musculus with 34 samples.

Results

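The G1 and S phase cyclins and cyclin-dependent kinases (CDKs) were followed through early mouse development. They comprised 10 genes, listed by symbol and not by a cut on their values, though with earlier results of these data known. These were the D cyclins Ccnd1, Ccnd2 and Ccnd3 with their kinases Cdk4 and Cdk6, and the E cyclins Ccne1 and Ccne2 with their kinase Cdk2. Cyclin A2 (Ccna2) and the CDK inhibitor p27 (Cdkn1b) completed the set. All 10 were listed among the 58071 gene symbols of the series. Early zygotes had been injected with mRNA encoding CHK1, a kinase of the DNA damage checkpoint, either as the wild type (WT) or as a mutant written R442Q in the labels, and single embryos were sequenced. There were 5 WT and 6 R442Q zygotes and 4 WT and 5 R442Q late 2-cell embryos, all without inhibitor, and 7 WT and 7 R442Q blastocysts, all cultured with a CHK1 inhibitor at 30 nM. Every group thus carried injected CHK1 mRNA beside the embryo's own Chek1 gene, and embryos that were not injected, and blastocysts without the inhibitor, were not analysed here. The labels give neither the mouse strain nor whether the embryos of a group came from separate litters, so p-values measure the spread between these embryos only.

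In the G1 phase of the cell cycle, cyclins of the D class bind CDK4 or CDK6 and begin to phosphorylate the retinoblastoma protein, which otherwise holds E2F transcription factors inactive. Cyclin E with CDK2 completes that step and helps to start DNA replication, and cyclin A2 with CDK2 carries the cell through S phase and, with CDK1, towards mitosis. The inhibitor p27 binds CDK2 complexes and is itself degraded as cells enter S phase. The first cleavages of the mouse embryo run on maternal mRNA stored in the egg, until the embryo's own genome is switched on, mainly at the 2-cell stage. CHK1 limits CDK activity when DNA is damaged, in part by marking the phosphatase CDC25A, an activator of CDKs, for degradation.

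Promoter sequences are shown for 3 members, the rising Ccne1 and Cdk2 and the falling Cdkn1b, which had the widest changes between zygote and late 2-cell embryo among the 6 members with a matched sequence. Ccnd2, which was not matched, had larger fitted changes than Cdk2 and Cdkn1b in both genotypes. Each run gives the 250 bases before the start annotated by RefSeq on GRCm38.p6, read 5′ to 3′ on the gene's own strand, with matches in capitals. The searched letters were the E2F words TTTCCCGC, TTTCGCGC, TTTGCCGC and TTTGGCGC, the cell cycle homology region (CHR) word TTTGAA and the CCAAT word, on both strands.
Ccne1 promoter (chr7:38107491-38107740, minus strand): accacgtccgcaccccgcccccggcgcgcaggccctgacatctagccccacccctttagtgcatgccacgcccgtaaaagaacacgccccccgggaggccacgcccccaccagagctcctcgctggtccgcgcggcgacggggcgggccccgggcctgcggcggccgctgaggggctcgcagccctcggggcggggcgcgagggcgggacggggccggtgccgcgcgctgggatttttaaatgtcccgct
Cdk2 promoter (chr10:128705052-128705301, minus strand): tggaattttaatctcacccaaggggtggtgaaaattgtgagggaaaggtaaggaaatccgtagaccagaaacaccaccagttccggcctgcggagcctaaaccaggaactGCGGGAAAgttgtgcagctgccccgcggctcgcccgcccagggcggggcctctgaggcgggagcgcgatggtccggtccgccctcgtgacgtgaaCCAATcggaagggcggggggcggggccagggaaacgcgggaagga
Cdkn1b promoter (chr6:134920151-134920400, plus strand): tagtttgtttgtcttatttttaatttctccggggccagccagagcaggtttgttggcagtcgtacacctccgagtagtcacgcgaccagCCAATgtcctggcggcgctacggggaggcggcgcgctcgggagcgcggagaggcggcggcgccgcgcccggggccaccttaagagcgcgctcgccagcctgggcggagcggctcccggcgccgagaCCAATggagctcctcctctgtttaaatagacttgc

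The Cdk2 window held 1 E2F word (TTTCCCGC, read on the opposite strand, 140 to 133 bases before the start) and 1 CCAAT word, 45 to 41 bases before it. The Cdkn1b window held 2 CCAAT words, ending 157 and 31 bases before the start. In the Ccne1 window, 76.0% of whose bases were G or C, none of these letters was found. RefSeq sequences were matched for 6 of the 10 members, with 7 starts in all. Besides those printed they were Ccnd3, which has 2 starts and 1 CCAAT word before the second of them, Cdk4 and Cdk6. Those for Ccna2, Ccnd1, Ccnd2 and Ccne2 were not matched. Among 32851 promoter windows of the same length, 1.86% held an E2F word, 16.0% the CHR word and 33.8% the CCAAT word. No overlap between words occurred in the printed windows.

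Levels are given as CPM, counts scaled to library size and normalised over the 20 zygotes and late 2-cell embryos, or as FPKM, which scales fragments by gene length and library size and is the only unit used for blastocysts. Total counts ranged from 7183632 to 11296522 per zygote and from 5727956 to 8916343 per late 2-cell embryo, and the depth of the blastocysts is unknown. The labelled stages were checked against marker genes: all 7 oocyte and zygote markers were detected in zygotes, where they summed to between 3610 and 7850 FPKM, and in blastocysts they summed to at most 4.28 FPKM, against at least 1250 FPKM for 6 trophectoderm markers. Late 2-cell embryos were less clear. The 7 late 2-cell markers summed to 109 to 232 FPKM in zygotes and to 469 FPKM or more in 8 of the 9 late 2-cell embryos, but to 103 FPKM in WT late 2-cell replicate 2, below every zygote. The oocyte and zygote markers summed to 4310, 3340, 6920, 4410 and 1670 FPKM in the R442Q late 2-cell embryos, against 1230 to 3150 FPKM in WT. Replicate 3 of the R442Q embryos lay above every R442Q zygote, and replicates 1 and 4 lay within the range of the zygotes. Leaving out WT replicate 2 or R442Q replicate 3 changed no member's call between the stages, between the late 2-cell genotypes or in the interaction. That does not address the difference in these markers between the groups, whose part was not tested. Markers of cumulus and granulosa cells, 12 in all, summed to at most 8.05 FPKM in zygotes, 107 FPKM in late 2-cell embryos and 72.0 FPKM in blastocysts, with Fshr and Lhcgr at 0 in all embryos of the 2 later stages. Amhr2, another of these markers, averaged 56.6 FPKM in WT and 25.2 FPKM in R442Q late 2-cell embryos, and 18.4 and 10.9 FPKM in blastocysts. Chek1, the injected gene, stood at 6157 ± 1782 CPM (SD, n = 5) in WT and 7236 ± 685 CPM (SD, n = 6) in R442Q zygotes, and at 463 ± 131 (SD, n = 4) and 449 ± 182 CPM (SD, n = 5) in late 2-cell embryos. Counts per gene separate neither injected from endogenous Chek1 nor the WT from the R442Q sequence, so this does not check the labels of the mutant. All levels are relative to the total of an embryo, and fewer cells of a type cannot be told apart from less RNA per cell.

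By mean FPKM, Ccna2 led the family in zygotes and late 2-cell embryos, and Cdk4 led it in blastocysts. Zygotes were dominated by Ccna2, late 2-cell embryos by Ccna2 and Ccne1 together, and blastocysts by Cdk4 and Ccnd3. In WT zygotes the mean FPKM was 186.6 ± 14.3 for Ccna2 (SD, n = 5) and 48.7 ± 11.2 for Ccne2, the next in order, and no other member passed 13.02 ± 6.15, the value of Ccnd3. Ccna2 lay above Ccne2, and Ccne2 above Ccnd3, in all 5 embryos and without overlap. The middle of the order, Ccnd3, Cdk2, Cdkn1b, Ccne1 and Cdk4, did not separate by range, each overlapping its neighbour. Within embryos, Cdkn1b lay above Ccne1 in all 5, and no other neighbours among these kept their order in every embryo. Ccnd1 and Cdk6 also overlapped, at means of 1.30 and 1.28 FPKM, and Ccnd2 was last at 0.108 ± 0.0691 FPKM. R442Q zygotes had the same leading pair, with Ccna2 between 228.4 and 272.4 FPKM in the 6 embryos and Ccne2 at 42.6 ± 6.60 FPKM.

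At the late 2-cell stage, WT embryos held Ccna2 at 476.9 ± 59.7 FPKM and Ccne1 at 431.6 ± 31.1 FPKM (SD, n = 4), which overlapped, and every other member was at least several times lower, led by Ccne2 at 69.8 ± 32.7 FPKM. Ccne2, Cdk2, Ccnd2, Ccnd3 and Cdk4 each overlapped the next in that order. In R442Q embryos Ccna2 stood at 447.9 ± 150.7 FPKM (SD, n = 5), above Ccne1, at 274.2 ± 90.9 FPKM, in all 5 embryos, although the ranges of the genes overlapped. Cdkn1b was last in both groups, at 0.740 ± 1.06 FPKM in WT and 0.708 ± 0.609 FPKM in R442Q.

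Blastocysts, in which the first tissues have formed, had another order. Cdk4 averaged 395.5 ± 97.7 FPKM in WT (SD, n = 7) and 337.7 ± 117.4 FPKM in R442Q embryos (SD, n = 7), and Ccnd3 averaged 221.1 ± 72.9 and 206.8 ± 108.4 FPKM. Cdk2 followed at 98.5 ± 32.3 and 83.8 ± 37.5 FPKM, then Ccna2 at 97.3 ± 48.9 and 58.1 ± 22.9 FPKM. Ccnd2 was again last, at 1.86 ± 1.77 and 0.550 ± 1.35 FPKM. Each neighbouring pair overlapped in its range, but Cdk4 exceeded Ccnd3 in all 7 WT blastocysts and in 5 of 7 R442Q blastocysts. The FPKM of the 3 stages come from tables normalised separately, and those of the blastocysts differ also by the inhibitor, so levels between blastocysts and earlier stages are set side by side without a test.

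**Figure D1:**
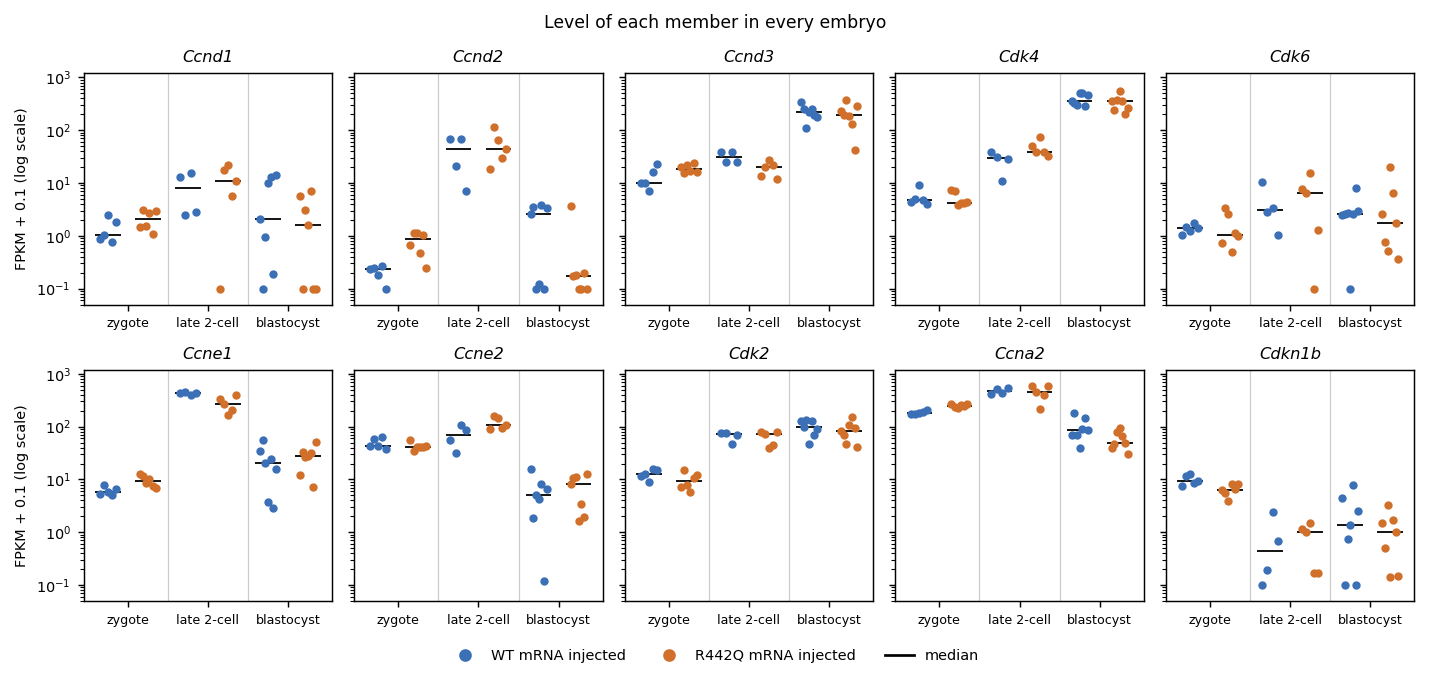
FPKM of each of the 10 members in each of the 34 embryos, by stage and injected mRNA, on a log axis after adding 0.1 so that embryos at 0 can be drawn; points are embryos and lines are medians. Ccne1 is between 4.94 and 12.8 FPKM in zygotes and between 168 and 462 FPKM in late 2-cell embryos, while Cdk4 and Ccnd3 are highest in blastocysts.

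Between zygote and late 2-cell embryo, most members were higher and Cdkn1b was lower. Members were compared with an edgeR quasi-likelihood test in a model of 4 groups, with Benjamini-Hochberg adjustment over all 16199 genes tested and a threshold of 0.05, which 61.2% of these genes passed in WT and 65.1% in R442Q embryos. Ccnd2 passed the filter on low counts through late 2-cell embryos alone, so it had to differ and is described without a test. The other 9 members passed the filter at each stage. Of these 9, 7 passed the test in WT embryos, 6 higher and 1 lower, where 60.6% of the 10853 genes that passed the filter at both stages did, 30.6% higher and 29.9% lower. R442Q embryos also had 7 of 9 past the threshold, 6 higher and 1 lower, where 66.5% of such genes passed, 30.4% higher and 36.1% lower. The median log2 change was 1.20 over the 9 members against -0.03 over such genes in WT, and 1.28 against -0.19 in R442Q embryos. Those not past the threshold were Ccne2 and Cdk6 in WT and Ccnd3 and Cdk6 in R442Q embryos. Each stage is a table of its own, so a difference between the stages and one between the tables cannot be told apart.

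Ccne1, cyclin E1, had the widest rise in CPM among these 9 members. In WT embryos it went from 9.09, 13.6, 9.78, 8.53 and 11.9 CPM in the 5 zygotes to 713, 850, 685 and 818 CPM in the 4 late 2-cell embryos. In R442Q embryos the 6 zygotes ranged from 13.5 over a median of 18.4 to 27.01 CPM, and the 5 late 2-cell embryos stood at 622, 487, 269, 374 and 693 CPM. No late 2-cell embryo overlapped any zygote. The log2 change was 6.18 ± 0.30 (SE) in WT, a fold of 72.3, with an adjusted p of 5.6e-13, and 4.66 ± 0.26 in R442Q, a fold of 25.3, with an adjusted p of 7.7e-13.

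Its partner Cdk2 also rose in both genotypes. WT embryos went from 23.4, 26.1, 19.4, 33.3 and 33.3 CPM in zygotes to 143, 158, 93.4 and 150 CPM at the late 2-cell stage, a log2 change of 2.33 ± 0.32 (SE; adjusted p 1.2e-06). R442Q zygotes ranged from 14.1 over a median of 21.8 to 36.8 CPM, and their late 2-cell embryos stood at 174, 153, 62.0, 91.9 and 161 CPM, a log2 change of 2.46 ± 0.29 (adjusted p 9.8e-08). Every late 2-cell embryo lay above every zygote.

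The other E cyclin, Ccne2, moved much less. It stood at 48.1, 67.0, 50.1, 67.5 and 44.4 CPM in WT zygotes and at 63.0, 33.7, 96.4 and 89.6 CPM in WT late 2-cell embryos, with a log2 difference of 0.35 ± 0.27 that did not pass (adjusted p 0.256). R442Q embryos had from 39.2 over a median of 52.4 to 52.9 CPM in zygotes and 84.0, 161, 141, 121 and 97.1 CPM later, a rise of 1.28 ± 0.24 on the log2 scale (adjusted p 6.8e-05). The WT embryos overlapped between the stages and the R442Q embryos did not. Among the E cyclins the share of FPKM held by Ccne1 was 11.2 ± 2.63% in WT (SD, n = 5) and 18.3 ± 3.86% in R442Q zygotes (SD, n = 6), and 86.1 ± 6.42% (SD, n = 4) and 68.3 ± 10.7% (SD, n = 5) in late 2-cell embryos. In blastocysts it was 76.8 ± 18.0% and 78.8 ± 11.7% (SD, n = 7 each). By mean share, cyclin E mRNA was thus mostly Ccne2 in zygotes and mostly Ccne1 in late 2-cell embryos and blastocysts. Ccne1 exceeded Ccne2 in 6 of 7 WT blastocysts and in all 7 R442Q blastocysts.

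Ccna2, already abundant in the zygote, rose less. Its CPM was 359, 324, 323, 397 and 439 in WT zygotes and 654, 871, 704 and 870 in WT late 2-cell embryos, which did not overlap, a log2 change of 1.07 ± 0.23 (SE; adjusted p 3.4e-04). In R442Q embryos it went from between 460 and 557 CPM, with a median of 509, to 961, 714, 306, 755 and 907 CPM. There the third late 2-cell embryo lay below every R442Q zygote and the log2 change was 0.53 ± 0.21 (adjusted p 0.0288). That call was lost in 8 of the 20 fits that left out 1 embryo, as far as an adjusted p of 0.124 without R442Q late 2-cell replicate 1, and passed in the other 12. Without R442Q late 2-cell replicate 3 the change was 0.80.

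D cyclins and their kinases started from low levels. Ccnd2 had at most 2.85 CPM in any zygote, and WT zygote replicate 5 had no count, which allows up to 0.339 CPM. In WT late 2-cell embryos it stood at 65.5, 19.9, 55.3 and 3.65 CPM and in R442Q embryos at 10.8, 61.1, 32.3, 21.3 and 28.3 CPM, all above the zygotes. The fitted log2 difference was 5.74 ± 0.84 (SE) in WT and 4.58 ± 0.72 in R442Q embryos, with a spread between embryos of one group that spanned more than an order of magnitude in WT. Ccnd1 rose by 2.59 ± 0.80 in WT (adjusted p 0.0076) and 2.08 ± 0.71 in R442Q embryos (adjusted p 0.0135). It stood at 2.37 to 3.65 CPM in WT zygotes and at 2.59 to 5.72 CPM in R442Q zygotes. Its late 2-cell values were as uneven, at 27.8, 8.73, 28.2 and 3.21 CPM in WT and 0, 24.7, 34.5, 6.02 and 23.5 CPM in R442Q embryos, where the 0 allows up to 0.532 CPM. WT late 2-cell replicate 4 thus lay within the WT zygotes, and R442Q late 2-cell replicate 1 lay below every R442Q zygote.

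Ccnd3 was the main D cyclin of zygotes. WT embryos rose from 17.4, 17.2, 12.8, 29.2 and 41.1 CPM to 59.6, 45.4, 67.8 and 44.2 CPM, a log2 change of 1.20 ± 0.31 (adjusted p 0.0019). R442Q embryos had between 30.9 and 46.3 CPM in zygotes, with a median of 38.8, and 21.8, 26.5, 36.5, 33.3 and 20.9 CPM later, a log2 difference of -0.47 ± 0.28 that did not pass (adjusted p 0.147). The WT stages did not overlap, whereas the R442Q stages did.

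Cdk4 went from 5.41, 5.36, 12.4, 8.41 and 5.92 CPM in WT zygotes to 21.3, 29.2, 7.30 and 47.1 CPM, and rose by 1.80 ± 0.45 on the log2 scale (adjusted p 0.0014). In R442Q embryos it rose by 2.15 ± 0.41 (adjusted p 7.8e-05), from a median of 6.48 CPM to 54.3, 24.0, 36.9, 41.8 and 36.2 CPM. WT late 2-cell replicate 3 overlapped the zygotes and all R442Q late 2-cell embryos lay above theirs. Cdk6, its close relative, stayed between 2.49 and 17.7 CPM in WT late 2-cell embryos and between 0 and 27.6 CPM in R442Q embryos, and its log2 differences of 0.77 ± 0.83 and 0.67 ± 0.75 did not pass (adjusted p 0.428 and 0.443).

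Cdkn1b went the other way. It stood at 16.1, 25.0, 26.3, 19.4 and 20.7 CPM in WT zygotes and at 0, 0.142, 3.99 and 1.33 CPM in WT late 2-cell embryos, where the 0 allows up to 0.421 CPM. R442Q zygotes ranged from 8.89 over a median of 15.8 to 20.2 CPM and their late 2-cell embryos stood at 2.48, 2.04, 4.05, 0.164 and 0.108 CPM. All zygotes lay above all late 2-cell embryos. Cdkn1b fell by 3.96 ± 0.90 on the log2 scale in WT (SE; adjusted p 5.9e-04) and fell by 3.15 ± 0.77 in R442Q embryos (adjusted p 0.0011). The other CDK inhibitors did not share this: 4 of the 6 listed (Cdkn1a, Cdkn1c, Cdkn2c and Cdkn2d) passed the filter at both stages, and these 4 rose in both genotypes, where 30.6% of such genes rose in WT and 30.4% in R442Q embryos. Cdkn1a, which encodes p21, rose by 5.10 ± 0.53 in WT and 4.24 ± 0.46 in R442Q embryos (adjusted p 1.8e-08 and 2.9e-08), and Cdkn2d, an inhibitor of CDK4 and CDK6, by 2.98 ± 0.43 and 2.77 ± 0.39 (adjusted p 2.9e-06 and 1.5e-06).

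**Figure D2:**
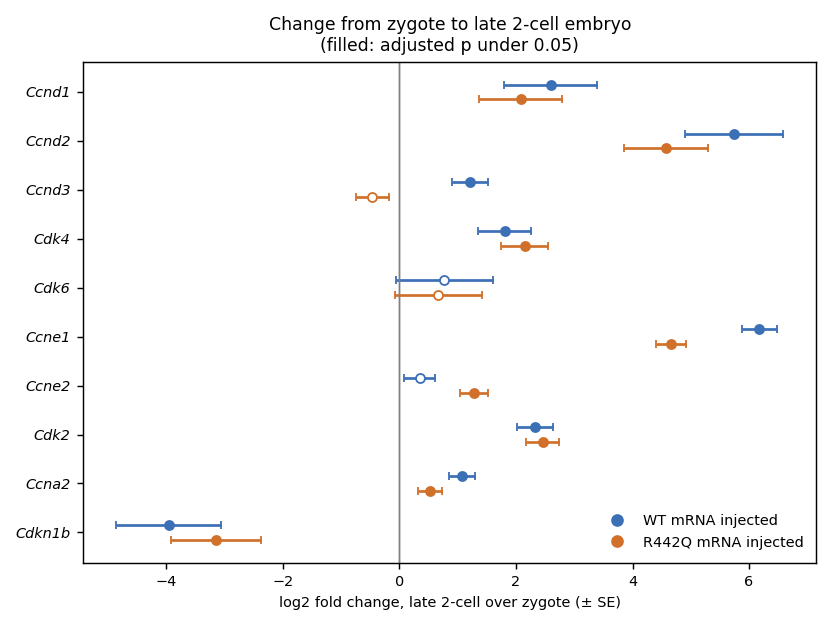
Log2 fold change from zygote to late 2-cell embryo for each member (horizontal axis, with SE), in WT and R442Q embryos, from the edgeR model of 4 groups; filled symbols have an adjusted p under 0.05. Ccne1 lies furthest right at 6.18 in WT and 4.66 in R442Q, Cdkn1b is the only member called lower, and Ccnd3 differs in sign between the genotypes. Ccnd2, at 5.74 and 4.58, passed the filter on low counts through late 2-cell embryos alone, so its filled symbols are not to be read as calls.

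The make-up of the D class also differed by stage. By FPKM, Ccnd3 made up 88.7 ± 8.30% of the D cyclins in WT (SD, n = 5) and 87.1 ± 5.08% in R442Q zygotes (SD, n = 6), but 46.9 ± 18.6% (SD, n = 4) and 26.9 ± 12.6% (SD, n = 5) in late 2-cell embryos. Ccnd2 held 44.0 ± 16.6% and 61.7 ± 9.04% there, and Ccnd1 9.14 ± 3.34% and 11.4 ± 7.47%. In blastocysts Ccnd3 held 96.7 ± 3.31% and 98.5 ± 2.06% (SD, n = 7 each), with Ccnd2 under 1.70% in each embryo. Cdk4 made up 79.7 ± 6.01% of Cdk4 plus Cdk6 in WT zygotes, 86.2 ± 9.68% in WT late 2-cell embryos and 99.1 ± 0.847% in WT blastocysts. The share of Ccnd2 was thus high in late 2-cell embryos and low in both the zygotes and the blastocysts.

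These shares depend on the lengths behind the FPKM. The counts per FPKM imply a length of 925 bases (median) for Ccnd2 in WT and 574 bases in R442Q late 2-cell embryos, against 6330 bases for its longest annotated transcript. Taken from counts, Ccnd2 held 28.4% of the D cyclins in WT and 38.6% in R442Q late 2-cell embryos, Ccnd3 57.9% and 41.9%, and Ccnd1 13.7% and 19.5%. In CPM, Ccnd2 averaged 30.8 ± 18.8 and Ccnd3 27.8 ± 6.91 in R442Q late 2-cell embryos (SD, n = 5), which overlapped. The share of Ccne1 among the E cyclins of zygotes was 16.3% in WT and 27.8% in R442Q embryos when taken from counts. That of Cdk4 in Cdk4 plus Cdk6 was 60.1% in WT and 58.4% in R442Q zygotes and 70.9% and 81.8% in late 2-cell embryos. For Ccne1 the implied length was between 1832 and 1895 bases (medians of the 4 groups), so its FPKM and CPM moved alike.

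**Figure D3:**
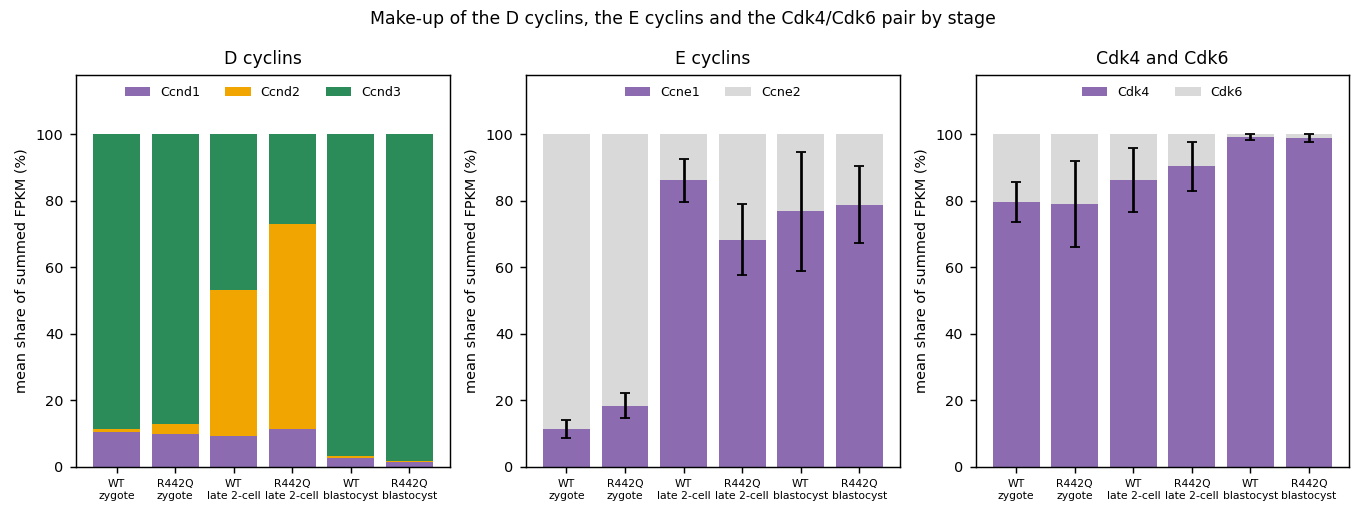
Mean share of summed FPKM within the D cyclins, the E cyclins and the pair Cdk4 and Cdk6 (vertical axes, percent), for each stage and injected mRNA; error bars on the E cyclin and kinase panels are SD over 4 to 7 embryos. Ccnd3 holds 88.7% of the D cyclins in WT zygotes and 96.7% in WT blastocysts but 46.9% in WT late 2-cell embryos, and Ccne1 goes from 11.2% to 86.1% of the E cyclins between WT zygotes and late 2-cell embryos.

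R442Q and WT zygotes were then compared, which addresses whether the mutant changes the transcriptome before the first cleavage. Of 9 members tested, 2 were called, Ccna2 and Ccne1, both higher in R442Q, where 13.2% of all 12420 genes tested were called in either direction (edgeR, each stage fitted alone). The median log2 difference was 0.28 over these members and 0.01 over all genes. Ccna2 was higher by 0.42 ± 0.11 (SE) on the log2 scale, a fold of 1.34 (adjusted p 0.0159), and was the only member whose embryos did not overlap, with WT between 323 and 439 CPM and R442Q between 460 and 557 CPM. Of all genes tested, 8.38% did not overlap. Ccne1 was higher by 0.84 ± 0.23, a fold of 1.79 (adjusted p 0.0206), with WT up to 13.6 CPM and R442Q from 13.5 CPM.

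Both calls were lost in the fit that joined the early stages, with an adjusted p of 0.366 for Ccna2 and 0.0669 for Ccne1, at log2 differences of 0.46 and 0.86. Ccna2 kept its call without any 1 embryo. Ccne1 also lost it without WT replicate 1 (adjusted p 0.0530), WT replicate 4 (0.0518) or R442Q replicate 1 (0.0520), and on deposited FPKM (0.0603).

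Among the other members Ccnd3 differed by 0.67 ± 0.26 (adjusted p 0.0930) and Cdkn1b by -0.48 ± 0.21 (adjusted p 0.144), neither past the threshold. Without WT replicate 5, the WT zygote with the most Ccnd3, the Ccnd3 difference was 0.98 and passed (adjusted p 0.0119). It also passed with the length and GC trend removed (0.75, adjusted p 0.0369) and with no filter on low counts (0.64, adjusted p 0.0394), and in the joint fit of both early stages it did not (0.71, adjusted p 0.269). Ccnd1 (0.54 ± 0.33), Cdk6 (0.28 ± 0.30), Cdk4 (0.19 ± 0.33), Ccne2 (-0.18 ± 0.14) and Cdk2 (-0.25 ± 0.24) had adjusted p between 0.325 and 0.770, and Ccnd2 had too few counts to be tested. The summed FPKM of the 7 oocyte and zygote markers was 5320 to 7850 in WT and 3610 to 5820 in R442Q zygotes. Its part in these differences was not tested.

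Other genes of the pathway were called between the zygotes in both directions, in numbers to be read against the 13.2% of all genes called. Of 11 tested genes of the RB and E2F list, 2 rose in R442Q: E2f4 by 0.40 ± 0.12 (adjusted p 0.0400), a mostly repressive E2F, and Tfdp1 by 0.49 ± 0.15 (adjusted p 0.0400), the partner with which E2F proteins bind DNA. Of 14 genes for the turnover of G1 and S phase cyclins and of p27, 3 rose and 1 fell. Cks1b, which helps the ubiquitin ligase SCF-SKP2 recognise p27, rose by 0.46 ± 0.09 (adjusted p 0.0027) and its relative Cks2 by 0.34 ± 0.09 (adjusted p 0.0256), the third being Rbx1. Fbxo5, which encodes EMI1, an inhibitor of the anaphase-promoting complex, fell by 0.52 on the log2 scale (SE 0.14; adjusted p 0.0239). Of 4 genes for CDK activation 2 fell: Cdc25a, the CDK-activating phosphatase and a target of CHK1, by a log2 of -1.18 ± 0.19 (adjusted p 8.5e-04), and Cdk7, the kinase of the CDK-activating complex, by -0.73 ± 0.16 (adjusted p 0.0058). Ccnl1, a cyclin linked to splicing, was the only one of 16 other cyclins called, at -0.76 ± 0.17 (adjusted p 0.0066). Of 13 other CDKs, Cdk5, at -0.81 ± 0.14 (adjusted p 0.0015), and Cdk11b, at -0.49 ± 0.14 (adjusted p 0.0348), fell, and of 4 other CDK inhibitors tested none was called. By list the median log2 difference was 0.27 for RB and E2F, -0.08 for turnover, -0.58 for CDK activation, -0.13 for other cyclins and -0.18 for other CDKs.

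In late 2-cell embryos no member was called, where 4.18% of 13883 genes were (edgeR), and 2 of 10 members had an unadjusted p under 0.05, as did 21.0% of all genes. Those were Ccnd3, at -0.92 ± 0.33 (SE) on the log2 scale (adjusted p 0.123), and Ccne2, at 0.82 ± 0.35 (adjusted p 0.194). DESeq2 and the fit joining both early stages each called 1 member, Ccnd3, with adjusted p of 0.0276 and 0.0362, where they called 14.5% and 15.5% of all genes. Only Ccnd3 did not overlap, with 44.2 to 67.8 CPM in WT and 20.9 to 36.5 CPM in R442Q, as did 12.2% of all genes tested. After a correction for the length and GC content of genes within each library, the Ccnd3 difference was 0.0050. Ccne1 differed by -0.58 ± 0.31 (adjusted p 0.311), with 685 to 850 CPM in WT and 269 to 693 CPM in R442Q embryos, which overlap by 1 embryo. Ccna2 and Cdk2 had differences near 0, of -0.03 ± 0.33 and -0.02 ± 0.35, and the remaining members lay between -0.19 ± 0.65 for Ccnd2 and 0.62 ± 0.47 for Cdk4. Of the other pathway genes only Ccnf, which encodes the F-box protein cyclin F, was called, at -1.36 ± 0.31 (adjusted p 0.0251).

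The lowest values of several members came from the same embryo. The third R442Q late 2-cell embryo had the lowest Ccna2, Ccne1 and Cdk2 of all 9 late 2-cell embryos, at 306, 269 and 62.0 CPM, and the highest sum of the 7 oocyte and zygote markers, at 6920 FPKM. That sum was 1230 to 3150 FPKM in WT and 1670 to 6920 FPKM in R442Q embryos, and the sum of 7 late 2-cell markers, among them Zscan4c, was 103 to 1390 FPKM in WT and 620 to 2740 FPKM in R442Q embryos. The part of either list in the values of the members was not tested. Leaving out each embryo in turn gave no called member at this stage.

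**Figure D4:**
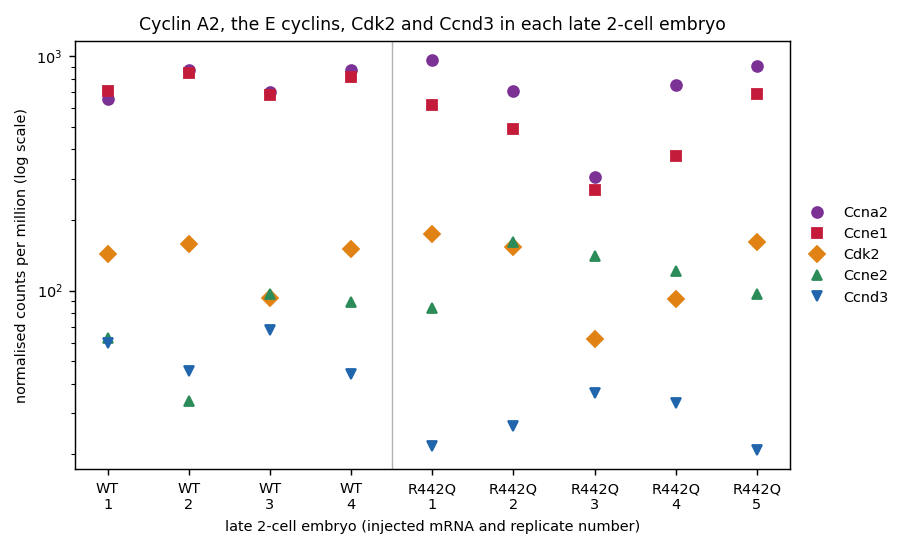
Normalised CPM of Ccna2, Ccne1, Cdk2, Ccne2 and Ccnd3 (vertical log axis) in each of the 4 WT and 5 R442Q late 2-cell embryos (horizontal axis). Replicate 3 of the R442Q embryos has the lowest Ccna2 (306), Ccne1 (269) and Cdk2 (62.0), and every R442Q embryo lies below every WT embryo in Ccnd3.

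Whether the genotypes changed differently from zygote to late 2-cell embryo was tested by the interaction term. It was called for Ccne1 and Ccnd3, 2 of the 9 members that passed the filter on low counts at both stages. Ccnd2, which passed it through late 2-cell embryos alone, is not counted. Of all 16199 genes tested, without this limit, 10.1% were called. The rise of Ccne1 was smaller in R442Q embryos, with an interaction of -1.51 ± 0.34 on the log2 scale (adjusted p 0.0070), and the term stayed called in all 20 fits that left out 1 embryo and in the 5 other settings. The Ccnd3 term was -1.67 ± 0.42 (adjusted p 0.0126) and was also called in all 20 such fits. Without WT late 2-cell replicate 2 the terms were -1.31 for Ccne1 and -1.62 for Ccnd3, and without R442Q late 2-cell replicate 3 they were -1.20 and -1.62. With the length and GC trend removed, a setting chosen after seeing the data, Ccnd3 was no longer called, at -0.90 with an adjusted p of 0.204, whereas Ccne1 was, at -1.51 with an adjusted p of 0.0089. Ccne2 had a term of opposite sign, 0.93 ± 0.36, that did not pass (adjusted p 0.103). It did pass with relative log expression scaling (1.09, adjusted p 0.0496) and in DESeq2 (1.09, adjusted p 0.0213). It also passed without WT late 2-cell replicate 3 (adjusted p 0.0360) and without R442Q late 2-cell replicate 1 (0.0408) or 5 (0.0417). The median interaction was -0.31 over the 10 members, Ccnd2 among them, and -0.16 over all genes. With relative log expression scaling in place of TMM the median of all genes moved to -0.01 and the calls from 497 higher and 1142 lower to 707 higher and 917 lower.

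Other pathway genes with a called interaction went both ways, where 10.1% of all genes were called. Cdk7 (1.24 ± 0.35, adjusted p 0.0254), Skp1a (1.12 ± 0.27, adjusted p 0.0100), a core subunit of SCF ubiquitin ligases, Fbxo5 (1.02 ± 0.30, adjusted p 0.0335), Cdk8 and Ccnb3 had a positive term. For Skp1a this was a smaller fall, with a log2 change of -1.28 in R442Q and -2.40 in WT embryos. Fbxo5 and Ccnb3 were called lower across the stages in WT embryos alone. Tfdp1 (-1.11 ± 0.31, adjusted p 0.0241), Fzr1 (-2.20 ± 0.69, adjusted p 0.0421), which encodes the APC/C activator CDH1, Ccnf, Ccnj and Cdk16 had a negative term. Of these, Ccnf and Cdk16 were called higher across the stages in WT embryos alone. E2f7, a repressive E2F, was also called, but passed the filter on low counts through late 2-cell embryos alone and is not counted. Among genes that passed the filter at both stages, the called ones were 1 of 11 RB and E2F genes and 3 of 14 turnover genes. They were also 1 of 4 CDK activation genes, 3 of 15 other cyclins and 2 of 13 other CDKs. The 10.1% is over all genes tested, without this limit.

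In blastocysts, all with inhibitor, no member was called in limma, and none of the 9 tested had an unadjusted p under 0.05, where 7.40% of all genes did. Of 11297 genes tested, 1, or 0.00885%, was called. Ccnd2 was not tested, since too few embryos reached an FPKM of 1. The nearest to the threshold was Ccna2, at -0.68 ± 0.32 on the log2(FPKM + 1) scale (unadjusted p 0.0520, adjusted p 0.674). It ranged from 40.1 over a median of 85.2 to 179 FPKM in WT and from 30.1 over 49.0 to 93.7 FPKM in R442Q blastocysts, which overlapped. Differences on that scale understate changes of low genes.

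Cdk4 ranged from 289 over a median of 365 to 513 FPKM in WT and from 204 over 357 to 559 FPKM in R442Q, a difference of -0.26 ± 0.22 (adjusted p 0.853). Ccnd3 ranged from 110 over 222 to 344 FPKM and from 42.3 over 194 to 380 FPKM, a difference of -0.26 ± 0.38 (adjusted p 0.921). Ccne1 varied by more than an order of magnitude among WT blastocysts, from 2.82 over 20.6 to 54.8 FPKM, and from 7.15 over 27.3 to 51.6 FPKM in R442Q embryos (0.57 ± 0.58, adjusted p 0.889). Ccnd1 was at 0 in 1 WT and 3 R442Q blastocysts and reached 13.8 FPKM in WT and 7.05 FPKM in R442Q. No member had groups that did not overlap, as 0.416% of all genes did. The trophectoderm markers summed to between 3210 and 24300 FPKM in WT and between 1250 and 12900 FPKM in R442Q blastocysts; their part was not tested.

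**Figure D5:**
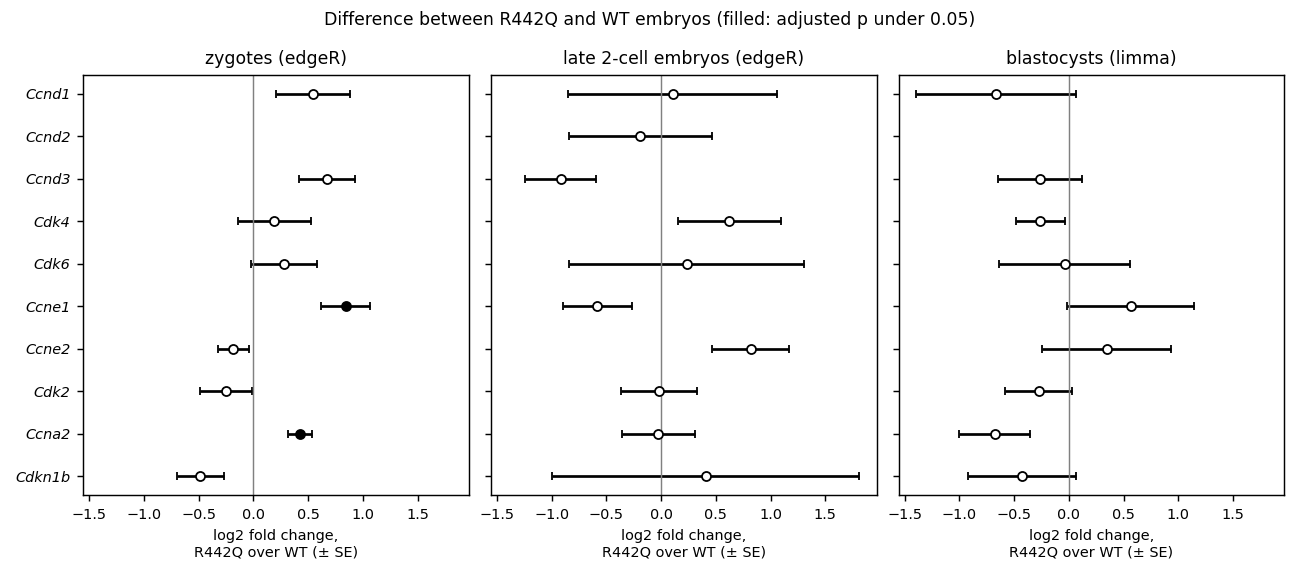
Log2 fold change of R442Q over WT embryos with SE (horizontal axes) for each member, in zygotes, late 2-cell embryos and blastocysts; filled symbols have an adjusted p under 0.05. Only Ccna2 (0.42) and Ccne1 (0.84) in zygotes are filled, and Ccnd2 is drawn for the late 2-cell stage only.

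Across the 20 zygotes and late 2-cell embryos, the gene most like each member was taken by Pearson's r of log2 CPM among 8605 or 8606 genes with a mean of at least 10 CPM. These are descriptions, since the embryos fall into separate stages. Ccne1 was closest to Eloa (r = 0.993) and Chek2 (r = 0.989), Cdk2 to Tob1 (0.977) and H2afv (0.968), Cdkn1b to Mansc1 (0.977) and Stk32b (0.965), Ccnd2 to Id3 (0.951) and Dkkl1 (0.947), and Ccna2 to Amd1 (0.932) and Rita1 (0.910). With the 4 group means subtracted, Cdk2 remained nearest to Tob1 (0.856), Cdkn1b to Mansc1 (0.909) and Ccnd2 to Id3 (0.781), whereas Ccna2 was nearest to Tubb5 (0.942), a tubulin gene, and Ccne1 to Zscan5b (0.843) in place of Eloa.

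On GRCm38, Ccna2 lies at chr3:36564865-36572150, Ccnd1 at chr7:144929931-144939925, Ccnd2 at chr6:127125162-127152193 and Ccne1 at chr7:38097984-38107534, all on the minus strand. Ccnd3 lies at chr17:47505051-47599691, Ccne2 at chr4:11191351-11204779, Cdk4 at chr10:127063534-127067920, Cdk6 at chr5:3341485-3531008 and Cdkn1b at chr6:134920401-134925513 on the plus strand, and Cdk2 at chr10:128697939-128705031 on the minus strand. Values are summed over all exons of a gene. The libraries do not mark strand, and 8 members overlap a gene on the opposite strand, so their reads could be shared with it. The share of 50-base stretches found also in another gene was 21.6% for Ccnd1 (with LTO1), 17.0% for Cdk4 (Tspan31), 14.4% for Ccne2 (Ints8) and 11.4% for Ccna2 (Exosc9), and at most 6.3% for the other members. Ccne1 and Cdkn1b overlap no other gene, and 0.0% of their stretches are shared.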

How the data were processed

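Single mouse embryos were sequenced from SMART-seq2 cDNA fragmented by Tn5, per the labels' protocols, and RSEM and mm10 are named in the submitters' processing notes. The aligner, annotation and use of strand are not given in the sources used here. For zygotes and late 2-cell embryos the authors deposited estimated counts per gene (75.4% and 71.7% of values above 0 were whole), which were rounded here, and FPKM. For blastocysts FPKM, normalised by the authors to length and library size, was used alone. Of the symbols, 98.4% (early stages) and 92.1% (blastocysts) were in GENCODE M21 (GRCm38), which gave positions.

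Counts were tested with edgeR 4.0.16 in R 4.3.3 (TMM, filterByExpr with a minimum count of 10, quasi-likelihood), each stage alone, and both early stages in a model of 4 groups for the stage changes and their interaction. Blastocysts were tested with limma 3.58.1 (trended variance, log2(FPKM + 1)), keeping genes that reached 1 FPKM in 7 or more of the 14 embryos. P-values were Benjamini-Hochberg adjusted over all genes tested, with a threshold of 0.05. DESeq2 1.42.0, other scalings, filters, units, pseudocounts, blocks, removal of the length and GC trend (splines with 5 degrees of freedom each), embryo weights and leaving out embryos were tried as alternatives. The scripts were tested on simulated data. A first simulation that held only doublings and halvings had none called at the late 2-cell stage or in the interaction, with sizes and signs recovered, and larger changes were then added to it. A change of that size not called there is therefore not shown to be absent.

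A floor is 3 counts of a library's total and covers counting error only, because the reads carry no molecular identifiers. All 10 members are named. Of the other pathway lists up to 2 genes per direction and genotype comparison are named by p, and further called genes were named after their values were seen. The members and lists were chosen with earlier results of these data known. The stages are separate tables, so FPKM across them is described and not tested. Replicate numbers did not pair the embryos: the correlation of deviations between equal numbers ran from -0.04 to 0.05 in zygotes, -0.12 to 0.19 in late 2-cell embryos and -0.17 to 0.20 in blastocysts, and not every pair exceeded 0.1.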

Additional observations from a re-analysis of the deposited data

Results flagged for a closer look

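Over the 10 members and 6 groups, 60 sets of embryos were searched for a single value far from the rest, and 4 were found, where chance gives about 1 in 20. In R442Q blastocysts, replicate 1 had 3.6 FPKM of Ccnd2 while the other 6 had at most 0.10 FPKM. Replicate 4 of the R442Q zygotes had 39.2 CPM of Ccne2, below the 48.9 CPM or more of the others. In FPKM that embryo did not stand apart, at 41.6 within a group range of 35.0 to 54.9. For Cdk6, WT blastocyst replicate 6 stood at 7.97 FPKM and R442Q blastocyst replicate 4 at 20.03 FPKM, each the highest of its group.

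The genotypes differed in the change from zygote to late 2-cell embryo for Ccnd3 (interaction -1.67 on the log2 scale) and Ccne1 (-1.51), each tested by the interaction term in edgeR. Ccnd3 lost its call when the length and GC trend was removed, and Ccne1 kept it.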

How the results depend on the processing

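Of the members' log2 changes under an alternative, 1168 kept direction and side of the threshold, 18 lost and 11 gained the call, and 53 changed sign. No sign change was past the threshold. In zygotes 1643 genes were called, 270 in the joint fit of both early stages and 983 with the replicate block by description number, and 2 members were called, against 0 and 1 in those fits and 1 on FPKM, with 1 to 3 members and 1125 to 1718 genes without any 1 embryo. FPKM also moved the zygote calls from 783 higher and 860 lower to 411 and 1231, and the joint fit moved them to 197 and 73. At the late 2-cell stage the 580 genes became 1846 with DESeq2, 2507 in the joint fit, 889 with no filter on low counts, 186 with the length and GC trend removed, and 49 and 0 with the replicate block by title and by description number, with 142 (without WT replicate 2) to 891 (without R442Q replicate 3) leaving out 1 embryo. No member was called there, but 1 with DESeq2 and 1 in the joint fit. In blastocysts the 1 called gene became 0 with no filter and with the replicate block, 5 with TMM scaling and 5 with embryo weights, and 0 to 30 (without WT replicate 7) leaving out 1 embryo. For the interaction, 1639 genes became 2526 with DESeq2 and 1085 with the replicate block, with 1089 (without WT zygote replicate 2) to 2311 leaving out 1 embryo, and the 2 members became 1, Ccne1, with the length and GC trend removed in the joint fit, which was added after seeing the data. The cause was not tested.

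Values that changed sign were, on FPKM, zygote Cdk4 (-0.061) and Cdk6 (-0.012) and late 2-cell Ccnd2 (0.61). With the length and GC trend removed they were late 2-cell Ccnd2 (0.044), Ccnd3 (0.0050) and Cdk2 (0.14). The replicate block by title number did so for late 2-cell Ccnd1 (-0.082), Ccnd2 (0.27) and Cdk6 (-0.40), and that by description number for Ccna2 (0.051), Ccnd1 (-0.33), Ccnd2 (0.78) and Cdk6 (-1.64). Embryo weights did so for blastocyst Ccne2 (-0.16), and relative log expression scaling and DESeq2 for the interaction of Cdk6 (0.023 and 0.020). Leaving out 1 embryo gave zygote Cdk4 from -0.016 to 0.44, late 2-cell Ccna2 from -0.17 to 0.17, Ccnd1 from -0.26 to 0.46, Ccnd2 from -0.59 to 0.27, Cdk2 from -0.17 to 0.16, Cdk6 from -0.69 to 0.92 and Cdkn1b from -0.024 to 1.86. It gave blastocyst Ccnd3 from -0.45 to 0.073, Ccne2 from -0.045 to 0.63 and Cdk6 from -0.48 to 0.19, and, for Cdk6, a stage change from -0.084 to 1.06 in WT and from -0.27 to 0.98 in R442Q embryos and an interaction from -0.94 to 0.66. The cause was not tested. In the replicate block the stage changes of Ccna2 (0.48) and Ccnd1 (1.86) in R442Q embryos were not called (adjusted p 0.0652 and 0.0659), nor, with that by description number, was zygote Ccne1 (0.70, adjusted p 0.104), whereas with that by title number zygote Ccnd3 was called (0.84, adjusted p 0.0465). Equal numbers do not pair the embryos: 1 of 5 WT zygotes, 1 of 4 WT late 2-cell embryos and 2 of 7 WT blastocysts correlated best with their own title number. Late 2-cell and blastocyst Cdkn1b failed the filter in some fits, which gave no value. Rescaling FPKM to TPM raised 20 levels by more than 1 SD, as that scale does, and from counts 11 of 20 shares moved by more than 1 SD. Late 2-cell Cdkn1b and all zygote Ccnd2 rest on few counts.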
